A study of Mus musculus with 46 samples.

Results

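Hnf4α and C/EBPα were profiled by ChIP-seq in livers of mice on the lipid-rich diet (LD), and the loci that each factor occupied were set against each other. Loci with a peak in both LD libraries of a factor were kept on chromosomes 1 to 19, X and Y, and a locus of one factor was paired with a locus of the other when they shared at least 1 bp. This gave 45272 loci in 3 classes, 21464 with Hnf4α alone, 11881 with both factors and 11927 with C/EBPα alone, out of 138336 merged peaks over all 8 libraries of the 2 factors on both diets. The 3 classes held 47.4%, 26.2% and 26.3% of the classed loci. The study used male C57BL/6 mice that arrived at 5 weeks of age and, after 1 week of acclimation, were fed for 20 weeks with LD, which gave 60% of its energy as lipid, 20% as carbohydrate and 20% as protein, or with the carbohydrate-rich diet (CD), which gave 10%, 70% and 20%. No allele, transgene or drug was part of the design. The catalogue number given for the Hnf4α antibody differs from library to library in the labels, while the study's methods name 1 antibody. Each diet had 2 livers for Hnf4α, 2 for C/EBPα, 3 for H3K27ac and 5 for RNA-seq. The classes rest on the 4 LD libraries of the factors, and the H3K27ac, RNA, CD and promoter capture Hi-C data had no part in them.

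Hnf4α is a nuclear receptor of hepatocytes that binds DNA as a homodimer at direct repeats of a half-site, and it is required for the expression of many genes of lipid, bile acid and blood protein metabolism. C/EBPα is a basic leucine zipper factor that binds palindromic sites as a dimer and is known for its part in hepatocyte identity, gluconeogenesis and the acute phase response. Both factors are abundant in the adult liver, where they are often found at the same enhancers. H3K27ac, an acetylated histone residue, marks active promoters and enhancers.

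A peak height is the number of sequence tags in a peak that HOMER scaled to a common library size. The LD libraries held 46363 and 44247 peaks for Hnf4α and 38281 and 39310 for C/EBPα, each called in one liver against input. In every list the ratio of tags to height was constant, at 4 for Hnf4α and 2 for C/EBPα, so that a given height rested on fewer tags for C/EBPα than for Hnf4α. Antibodies and depths differ between the factors, and heights were compared across factors only as percentile ranks within a library. Hepatocyte transcripts were the most abundant of the marker lists examined, as 6 hepatocyte markers summed to 85851 to 99152 TPM in the 5 LD mice, against 235 to 709 TPM for 5 macrophage markers, 184 to 244 for 4 endothelial, 217 to 366 for 4 stellate, 50.6 to 147 for 4 cholangiocyte and 2.83 to 6.5 for 4 lymphocyte markers. In tissue of several cell types, fewer cells of a type and less RNA per cell cannot be told apart, and the share of the peaks that came from cells other than hepatocytes was not measured.

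The sequences below are from loci among the highest of their class, and show the short strings that were searched, CAAAGNNCA for HNF4 and TTGCNNAA for C/EBP, on either strand. They were read from mm9 (NCBIM37), forward strand, and each spans 121 bases around the centre of the locus. Capitals mark every match to either string, on whichever strand it lies. Loci were taken in order of their mean rank when the window held the string of each factor of the class and no annotated exon. A locus beside the ribosomal RNA gene Rn45s and 1 other locus of C/EBPα alone are not shown. The loci near Nrip1, Umps, Tmco4 and Mad1l1 are of Hnf4α alone, those near 4931408D14Rik, Fahd1, Xdh and Alcam of both factors, and those near G530011O06Rik and Rcn1 of C/EBPα alone. At the Umps locus each LD library of C/EBPα had a peak that reached the locus from another side, and as these peaks did not overlap each other the locus stayed in the class of Hnf4α alone.
Nrip1, chr16:76454143-76454263: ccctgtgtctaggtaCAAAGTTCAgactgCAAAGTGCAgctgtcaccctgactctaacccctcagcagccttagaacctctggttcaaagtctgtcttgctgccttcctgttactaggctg
Umps, chr16:34029948-34030068: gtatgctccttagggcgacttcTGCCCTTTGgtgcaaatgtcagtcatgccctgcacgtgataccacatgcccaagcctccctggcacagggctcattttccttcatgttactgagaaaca
Tmco4, chr4:138560170-138560290: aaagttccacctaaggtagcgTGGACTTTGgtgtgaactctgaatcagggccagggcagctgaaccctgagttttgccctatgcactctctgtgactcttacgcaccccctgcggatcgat
Mad1l1, chr5:140594086-140594206: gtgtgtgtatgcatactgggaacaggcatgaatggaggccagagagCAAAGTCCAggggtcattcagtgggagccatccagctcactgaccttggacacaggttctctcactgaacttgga
4931408D14Rik, chr19:37338596-37338716: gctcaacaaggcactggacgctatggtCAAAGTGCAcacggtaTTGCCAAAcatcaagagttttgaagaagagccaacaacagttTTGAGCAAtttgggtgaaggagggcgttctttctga
Fahd1, chr17:24984437-24984557: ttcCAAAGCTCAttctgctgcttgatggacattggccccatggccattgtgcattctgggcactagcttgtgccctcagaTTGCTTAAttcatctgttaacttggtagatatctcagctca
Xdh, chr17:74299593-74299713: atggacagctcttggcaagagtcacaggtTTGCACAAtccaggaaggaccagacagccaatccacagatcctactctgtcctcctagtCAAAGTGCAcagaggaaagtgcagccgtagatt
Alcam, chr16:52333818-52333938: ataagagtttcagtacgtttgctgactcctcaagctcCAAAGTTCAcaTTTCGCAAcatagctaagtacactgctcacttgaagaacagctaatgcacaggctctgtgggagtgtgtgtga
G530011O06Rik, chrX:166417117-166417237: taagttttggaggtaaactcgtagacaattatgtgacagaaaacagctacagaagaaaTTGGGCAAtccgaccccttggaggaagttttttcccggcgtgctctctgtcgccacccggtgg
Rcn1, chr2:105268390-105268510: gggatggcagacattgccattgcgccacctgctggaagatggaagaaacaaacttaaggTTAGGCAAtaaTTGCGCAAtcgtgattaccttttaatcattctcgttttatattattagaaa

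To ask how much of the occupancy of one factor was shared with the other, the loci of each factor were counted first on their own. Hnf4α had 57212 loci in at least 1 LD library, of which 33345 (58.3%) were in both, and C/EBPα had 53716, of which 23808 (44.3%) were in both. Of the reproduced Hnf4α loci, 35.6% overlapped a C/EBPα locus, and of the reproduced C/EBPα loci, 49.9% overlapped an Hnf4α locus. The order of these shares turned without C/EBPα replicate 1 (43.1% and 36.6%) or replicate 2 (42.3% and 36.9%). With the remaining library alone deciding presence, loci of C/EBPα alone numbered 24899 and 24151 in these settings, and loci of Hnf4α alone 32816 without Hnf4α replicate 2. When only the 20000 highest peaks of each library were kept, so that the lists were of equal size, the shares were 37.6% of Hnf4α loci and 40.5% of C/EBPα loci. Loci found in a single library were low. In Hnf4α replicate 1, the median height was 8.5 at 12990 loci that the other library lacked and 26 at the 33345 loci in both, and in C/EBPα replicate 1 it was 7 at 14441 loci and 17 at 23808 loci. The other replicates gave 8.75 against 25.5 for Hnf4α and 7.5 against 19 for C/EBPα. A locus called alone could still hold a peak of the other factor in at least 1 of its libraries. This was so at 4821 loci of Hnf4α alone (22.5%) and at 3487 of C/EBPα alone (29.2%). At 42 and 44 of these, both libraries of the other factor had a peak on the locus, but the 2 peaks did not overlap each other and so made no reproduced locus.

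Shared loci were higher for both factors. The Hnf4α peak had a median height of 35.2 and 34 in LD replicates 1 and 2 at loci of both factors, and of 22.2 and 21.5 at loci of Hnf4α alone, a ratio of 1.59 and 1.58. The C/EBPα peak had medians of 21 and 23.5 at loci of both and of 14.5 and 16 at loci of C/EBPα alone, a ratio of 1.45 and 1.47. The interquartile ranges overlapped in every library. As percentile ranks within a library, the median was 73 and 72.7 for Hnf4α and 75.1 and 76.1 for C/EBPα at shared loci, against 55.9 and 54.1 at Hnf4α alone and 60.9 and 61.8 at C/EBPα alone. The difference had the same sign in both libraries of each factor. With 2 libraries an exact sign-flip test cannot go below p = 0.5, and none was made. Heights bear on whether a peak is called, and a height is thus not independent of the class.

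**Figure D1:**
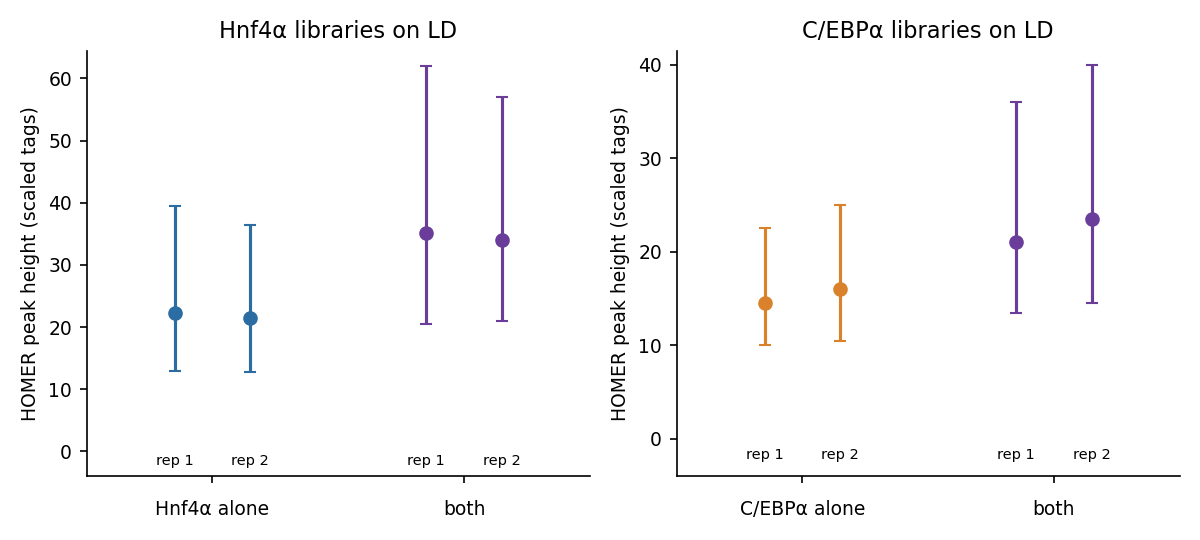
Peak height in HOMER's scaled tags (vertical axis) at loci of a class in each LD library, Hnf4α on the left and C/EBPα on the right. Points are medians over loci and bars the quartiles, and medians of shared loci lie above those of loci with 1 factor in all 4 libraries.

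The share of loci with both factors rose steadily with the height of either. Among Hnf4α loci cut into 10 equal parts by mean rank, 12.7% of the lowest part and 58.4% of the highest were shared. In C/EBPα loci the same shares were 28.4% and 77%. At the lowest part the median Hnf4α height was 7 and 7.25 in the 2 libraries, and at the highest 108 and 96.2. For C/EBPα these medians were 7.5 and 8 at the lowest part and 61 and 66.5 at the highest. Even among the highest Hnf4α loci, 1389 of 3335 had no reproduced C/EBPα peak, and among the highest C/EBPα loci 547 of 2381 had no reproduced Hnf4α peak.

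**Figure D2:**
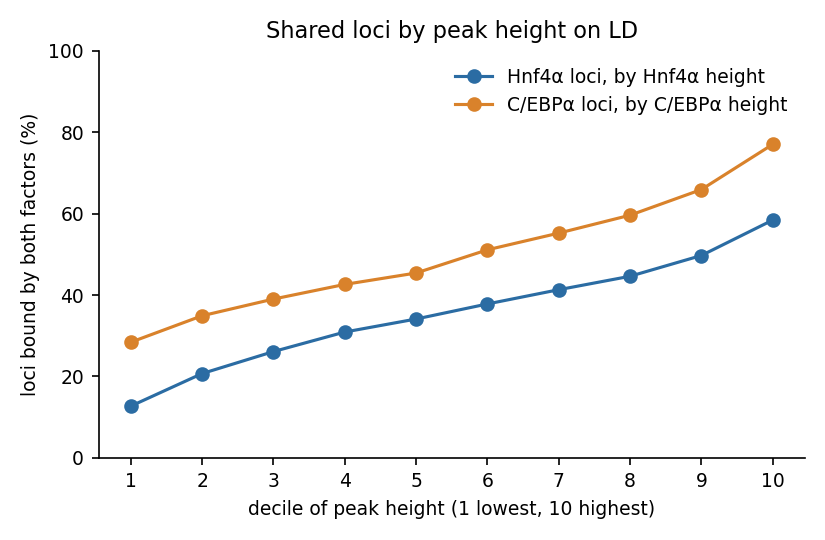
Share of loci bound by both factors (vertical axis, percent) by decile of peak height, from 1 for the lowest to 10 for the highest, for Hnf4α loci and for C/EBPα loci. The share rises from 12.7% to 58.4% for Hnf4α and from 28.4% to 77% for C/EBPα.

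At shared loci the spacing of the peaks was measured. The centres of the Hnf4α and the C/EBPα peak were a median of 31 bp apart, 68.8% lay within 50 bp, 89.1% within 100 bp, and 4.95% beyond 150 bp. For comparison, the centres of the same factor in replicates 1 and 2 were a median of 17 bp apart, both for Hnf4α and for C/EBPα. The distance between factors was thus larger than that between replicates, and well inside a median locus width of 286 bp.

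Short strings at the centre of the loci differed between the classes. Within the central 200 bp, CAAAGNNCA was found in 27.2% of loci of Hnf4α alone, in 20.2% of shared loci and in 6.09% of loci of C/EBPα alone, against 4.9% of all windows of the same length 1000 bp away. TTGCNNAA was found in 8.95% of loci of Hnf4α alone, in 40% of shared loci and in 49% of loci of C/EBPα alone, against 8.29% in the flanks. At loci of Hnf4α alone, the C/EBP string was thus 1.08 times as frequent as in their own flanks, and at loci of C/EBPα alone the HNF4 string was 1.28 times as frequent. Both strings together were in 7.71% of shared loci, 2.56% of loci of Hnf4α alone and 2.89% of loci of C/EBPα alone. In 47.6% of shared loci neither string was found, nor in 66.4% of Hnf4α alone and 47.8% of C/EBPα alone, which says only that these letters are not in that window. A match is a description of the letters and not a binding site.

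Stricter forms, and the string TGATGCAA, separated the classes of 1 factor further from each other in relative terms. Shared loci were not set further apart by each of them. CAAAGTCCA was in 6.81% of loci of Hnf4α alone, 3.96% of shared loci and 0.285% of C/EBPα alone, and CAAAGGTCA in 4.02%, 2.94% and 0.755%. The palindrome TTGCGCAA was in 3.36% of loci of C/EBPα alone, 0.749% of shared loci and 0.014% of Hnf4α alone, and its flank shares were between 0.0168% and 0.028%. TTGCACAA was in 12.5%, 7.95% and 0.671%, and TGATGCAA in 5.02%, 4.4% and 0.499%. CAAAGTCCA and CAAAGGTCA are forms of CAAAGNNCA, and TTGCGCAA and TTGCACAA are forms of TTGCNNAA, so that these counts overlap. Strings of other liver factors differed less between classes. The forkhead string TGTTTAC was in 5.73% of Hnf4α alone, 6.52% of shared and 4.63% of C/EBPα alone, the AP-1 string TGANTCA in 7.81%, 8.53% and 7.68%, the HNF1 string GTTAATNAT in 1.42%, 1.53% and 1.41%, and the ETS string CCGGAAGT in 0.592%, 0.429% and 0.956%. The median GC content of the central windows was 48.5% for Hnf4α alone, 47% for both and 46.5% for C/EBPα alone, and 45.5%, 45% and 45% in the flanks.

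**Figure D3:**
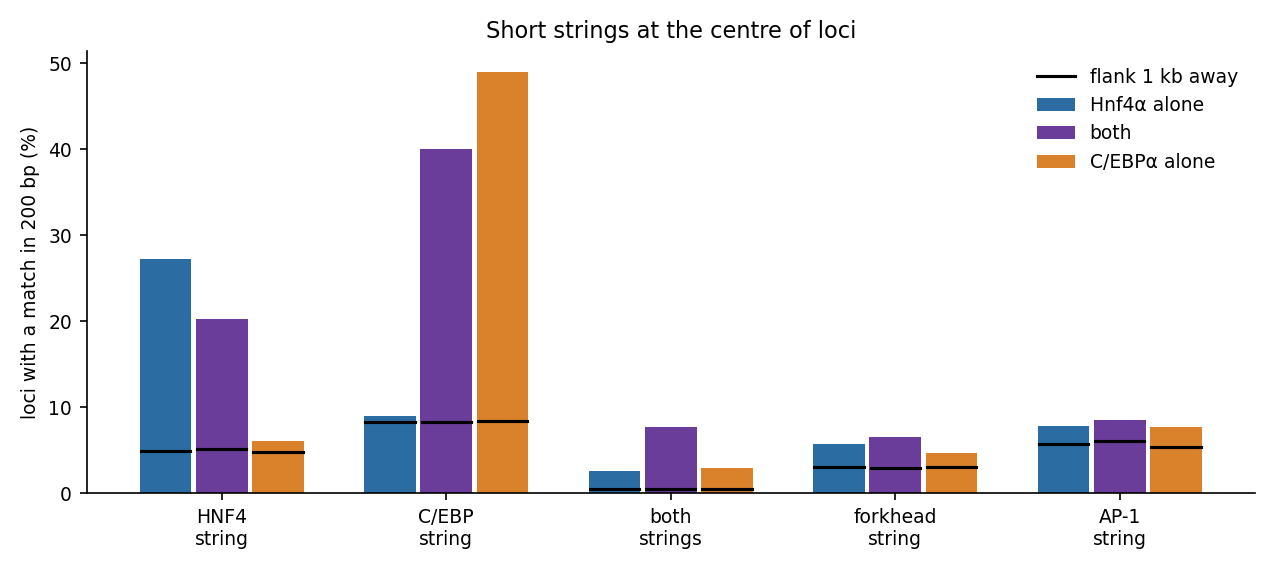
Share of loci with a match to a short string in the central 200 bp (vertical axis, percent) for the 3 classes, with black lines for flanks 1 kb away. The HNF4 string is in 27.2% of loci of Hnf4α alone and the C/EBP string in 49% of loci of C/EBPα alone, and shared loci lie between the classes for both.

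Shared loci carried each factor's own string less often than loci of that factor alone, although their peaks were higher. Within 1 kb of a TSS the shares were close, at 16.7% and 16.7% for the HNF4 string and 36.9% and 37.6% for the C/EBP string. When the window was placed on the centre of the factor whose string was searched, the HNF4 string was in 21.2% of shared loci against 27.2%, and the C/EBP string in 41.1% against 49%. The order was the same in 10 of 10 height deciles for Hnf4α, where the difference ranged from 1.2 to 17.2 percentage points, and in 10 of 10 for C/EBPα, from 1 to 23 points. It was largest at low peaks and small at the highest. In the lowest Hnf4α decile the string was in 28.3% of loci of Hnf4α alone and 11.1% of shared loci, and in the highest in 34.7% and 33.5%. In the lowest 2 C/EBPα deciles the C/EBP string was in 41.5% and 45.7% of loci of C/EBPα alone and in 22.5% and 22.7% of shared loci, and in the highest decile in 68% and 67%. At the 916 shared loci with both strings, the strings were a median of 43.5 bp apart between their centres, with quartiles of 21.5 and 72.5 bp, and 22.4% lay within 20 bp. In the locus near Alcam printed above the strings are separated by a pair of bases.

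All classes lay mostly away from promoters. The median distance from a locus centre to the nearest transcription start site (TSS) of the GENCODE annotation of this build was 12.8 kb for shared loci, 9.74 kb for Hnf4α alone and 8.84 kb for C/EBPα alone, with quartiles of 3.68 and 36.3 kb, 2.2 and 29.2 kb, and 1.53 and 29 kb. Within 1 kb of a TSS lay 11.5% of shared loci, 17.9% of Hnf4α alone and 20.8% of C/EBPα alone, and beyond 5 kb lay 70.4%, 63.8% and 60.2%. Among the 7701 loci within 1 kb of a TSS, 50% were of Hnf4α alone, 32.3% of C/EBPα alone and 17.8% shared, and among the 29233 loci beyond 5 kb the shares were 46.8%, 24.6% and 28.6%. Shared loci had the lowest share within 1 kb in every setting tried. The order of the classes with 1 factor was not stable, since with the 20000 highest peaks per library 21.5% of Hnf4α alone and 19% of C/EBPα alone lay within 1 kb. Loci outside this distance were mostly intronic or intergenic, with 43.6% and 41.6% of shared loci, 42.3% and 36.1% of Hnf4α alone and 41.7% and 33.8% of C/EBPα alone. Coding exons held 1.29% to 1.52% of a class and untranslated regions 1.41% to 1.56%.

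Near a TSS the strings were scarcer for the classes of 1 factor. Within 1 kb, CAAAGNNCA was in 16.7% of 3848 loci of Hnf4α alone, against 29.6% of the 13685 beyond 5 kb. TTGCNNAA was in 37.6% of 2485 loci of C/EBPα alone within 1 kb and in 52.5% of 7185 beyond 5 kb. In shared loci the shares were 16.7% near a TSS and 20.7% beyond 5 kb for the HNF4 string, and 36.9% and 40.7% for the C/EBP string. Central windows within 1 kb of a TSS were richer in GC, with medians of 58% for Hnf4α alone, 51% for both and 54% for C/EBPα alone.

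H3K27ac was measured in 3 other libraries of LD livers, which the classes did not use. SICER intervals covered 5.87%, 6.04% and 5.64% of these chromosomes in LD replicates 1, 2 and 3. They overlapped 85.9%, 84% and 83.9% of shared loci, 73.6%, 71.2% and 70.9% of Hnf4α alone and 66.2%, 65.6% and 64.5% of C/EBPα alone. The means were 84.6% ± 1.1, 71.9% ± 1.5 and 65.4% ± 0.849 (SD, n = 3), and in each of the 3 livers the shares fell in this order without overlap between classes. An exact sign-flip test over 3 livers cannot go below p = 0.25 and was not made. The lead of Hnf4α alone over C/EBPα alone shrank to a near tie without Hnf4α replicate 1 (65.1% and 65%) and was lost without replicate 2 (63% and 65.2%). Near a TSS the classes were nearly alike, with 96.3% ± 0.304 of shared loci, 92.2% ± 0.42 of Hnf4α alone and 92.1% ± 0.213 of C/EBPα alone (SD, n = 3), while beyond 5 kb the means were 81.2% ± 1.24, 64.7% ± 1.81 and 53.8% ± 1.19. Of distal loci of C/EBPα alone, 39.2% met no H3K27ac interval in any of the 3 livers, against 28.1% of Hnf4α alone and 13.7% of shared loci.

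H3K27ac overlap rose with the height of the Hnf4α peak in both classes that hold it. From the lowest to the highest Hnf4α decile, the share with H3K27ac rose from 24.1%, 21.9% and 22.2% in the 3 livers to 98.1%, 97.4% and 97.1% at loci of Hnf4α alone, and from 30.8%, 28.4% and 25.4% to 98.7%, 98.2% and 98.2% at shared loci. Within a decile, the mean difference between shared loci and Hnf4α alone ran from -0.6 to 5.47 percentage points, and shared loci were above in all 3 livers in 6 of 10 deciles. The difference of the whole classes was 84.6% against 71.9%. Shared loci were above C/EBPα alone in all 3 livers in 10 of 10 C/EBPα deciles, by 6.93 to 23.3 points on average. In the lowest C/EBPα decile H3K27ac met 73.5%, 70.3% and 68.3% of shared loci and 48.4%, 47.8% and 46.1% of C/EBPα alone, and in the highest 94.3%, 92.7% and 92.7% against 86.5%, 86.7% and 85.7%.

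**Figure D4:**
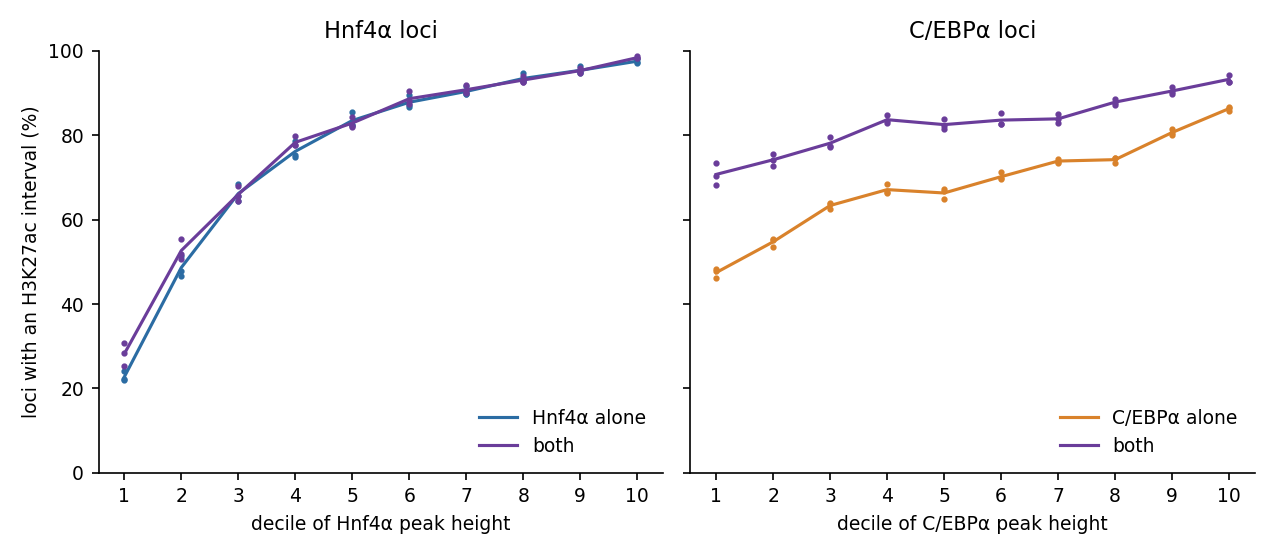
Share of loci that overlap an H3K27ac interval (vertical axis, percent) by decile of Hnf4α height (left) and C/EBPα height (right). Dots are the 3 LD livers and lines their means, and shared loci run with Hnf4α alone on the left (mean differences from -0.6 to 5.47 points) and above C/EBPα alone on the right (6.93 to 23.3 points).

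Loci called alone whose other factor had a peak in at least 1 LD library lay between the classes. At the 4821 such loci of Hnf4α alone, H3K27ac met 78.4% ± 1.56 (SD, n = 3) and TTGCNNAA was in 16.1%, against 70.1% ± 1.48 and 6.87% at the 16643 loci with no C/EBPα peak in either library. At the 3487 such loci of C/EBPα alone the values were 68.1% ± 1.36 and, for CAAAGNNCA, 8.69%, against 64.3% ± 0.746 and 5.01% at the 8440 loci with no Hnf4α peak.

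Each locus was then given the gene of the expression table with the nearest start. The 21464 loci of Hnf4α alone led to 10011 genes, the shared loci to 6435 and those of C/EBPα alone to 7525, and 3072 genes had loci of all 3 classes. The median level of the genes near shared loci in the 5 LD mice was 5.44, 5.26, 5.3, 4.95 and 6.02 TPM, a level scaled for transcript length and depth. For genes near loci of Hnf4α alone it was 4.88, 4.74, 4.76, 4.51 and 5.39 TPM, and for those near C/EBPα alone 5.4, 5.24, 5.25, 4.89 and 5.99 TPM. LD replicate 5 was the highest and replicate 4 the lowest for each class, and the range over mice was wider than the differences between classes. On the scale of log2(TPM + 1) the medians were 2.68 ± 0.0873, 2.55 ± 0.079 and 2.67 ± 0.0899 (SD, n = 5). Shared loci were above Hnf4α alone by 0.13 in 5 of 5 mice and above C/EBPα alone by 0.01 in 5 of 5 mice, and Hnf4α alone was lower than C/EBPα alone by 0.12 in 5 of 5. Each difference had p = 0.063 in a two-sided exact sign-flip permutation test (Benjamini-Hochberg adjusted p = 0.063 over 3), the smallest that 5 mice allow. The gene lists were the same in every mouse, so the test covers the spread between mice and not that over genes or loci. A gap of 0.01 thus gave the same result as one of 0.13. None of the 3 directions held in every setting. Among the 20000 highest peaks per library, the difference of shared loci and Hnf4α alone was -0.078 and Hnf4α alone was above C/EBPα alone by 0.48. The difference of shared loci and Hnf4α alone was 0.26 or 0.28 without Hnf4α replicate 1 or 2 and 0.046 or 0.092 without C/EBPα replicate 1 or 2. Without Hnf4α replicate 1 or 2 the difference of shared loci and C/EBPα alone was -0.12 or -0.079, and without C/EBPα replicate 1 or 2 that of Hnf4α alone and C/EBPα alone was 0.35 or 0.41.

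Levels differed by the number of loci near a gene as well as by class. Genes with no classed locus had a median of 0 TPM in each LD mouse, with 27.2% at or above 1 TPM, against 54.2% of genes with shared loci only, 56.5% with Hnf4α alone only, 59.1% with C/EBPα alone only and 73% with all 3 classes. The 1073 genes with shared loci only had a median of 1.69 ± 0.175 TPM (SD, n = 5), below the 2.19 ± 0.185 TPM of the 3303 with Hnf4α alone only and the 2.6 ± 0.238 TPM of the 1913 with C/EBPα alone only in 5 of 5 mice, so that the order of the whole classes did not hold among genes with loci of 1 class. The 3072 genes with all 3 classes had 7.9 ± 0.53 TPM. By the number of shared loci, the median was 4.34 ± 0.314 TPM at 1 locus, 6.43 ± 0.512 at 2 to 3 and 9.72 ± 0.804 at 4 or more. The same rise was seen for Hnf4α alone, from 3.25 ± 0.291 to 8.37 ± 0.663 TPM, and for C/EBPα alone, from 4.27 ± 0.304 to 9.56 ± 0.743 TPM. The spacing of genes also sets how many loci have a gene as their nearest, and its part was not tested. At promoters, where a locus centre lay within 1 kb of the start of the gene, the classes differed more. The 864 genes with a shared promoter locus had medians of 22.5, 21.1, 22.7, 20.9 and 24.7 TPM in the 5 mice, the 2733 with Hnf4α alone 14.6, 13.7, 14.5, 13.8 and 15.7, and the 1868 with C/EBPα alone 12.2, 11.8, 12.1, 11.6 and 13. The mice of these 3 groups of genes did not overlap.

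The expression of these genes was compared between the diets with edgeR's quasi-likelihood test over 13494 genes, with calls made where the p-value adjusted by Benjamini and Hochberg's method was below 0.05 and levels differed more than 1.2-fold. Over all tested genes 13.8% were called higher and 11.1% lower on LD. Of 4666 tested genes near shared loci, 682 (14.6%) were higher and 772 (16.5%) lower on LD. Near Hnf4α alone these were 984 (13.7%) and 1028 (14.3%) of 7179, and near C/EBPα alone 741 (13.3%) and 791 (14.2%) of 5551. By nearest gene, the shares called higher were close to the background in every class, and those called lower were above it. By promoter locus, 16.1% were higher and 16.3% lower for shared loci, 11.6% and 14.5% for Hnf4α alone and 10.8% and 13.1% for C/EBPα alone. Of the 2402 tested genes with loci of all 3 classes, 478 (19.9%) were lower on LD, and of the 3953 with no locus 259 (6.55%). Levels moved with these shares, since tested genes with no locus had a median of 4.8 TPM and a median standard error of the log2 fold change of 0.135, and those with all 3 classes 14.6 TPM and 0.103. Their part in the shares was not tested. With loci of only 1 class, the share called lower was 10.4% for shared loci, 9.66% for Hnf4α alone and 6.98% for C/EBPα alone. These shares were below the 11.1% over all tested genes.

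Occupancy of the LD classes on the other diet was read in the CD libraries, which had no part in the classes. CD Hnf4α replicates 1 and 2 had a peak at 68.6% and 84.3% of loci of Hnf4α alone, at 78.9% and 92.5% of shared loci and at 13.1% and 25.9% of C/EBPα alone. The CD lists held 35143 and 47992 peaks for Hnf4α, with the lower shares in the smaller list, and 41713 and 46371 for C/EBPα, with the lower shares in the larger list. In CD C/EBPα replicates 1 and 2 a peak was at 14.3% and 10.4% of Hnf4α alone, 79.6% and 70.1% of shared loci and 67% and 56.5% of C/EBPα alone. Shared loci thus kept each factor more often than loci of that factor alone in every CD library. Shared loci were also higher on LD, and these shares were not compared at matched height. Counting a factor as present when both CD libraries had a peak, 53.9% of shared loci held both factors on CD as well, 23.5% only Hnf4α, 11.6% only C/EBPα and 11% neither. Of Hnf4α alone, 61.1% stayed in their class and 4.34% held both factors on CD, and of C/EBPα alone 43.7% stayed and 6.08% held both.

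**Figure D5:**
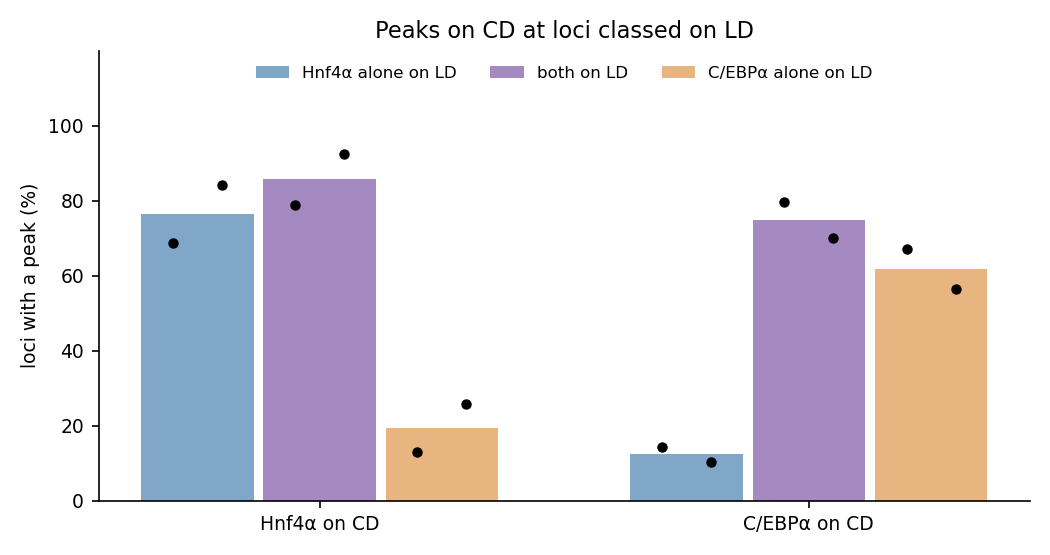
Share of the loci of each LD class with a peak of Hnf4α or C/EBPα in the CD libraries (vertical axis, percent). Bars are means of 2 libraries and dots the libraries, and loci of Hnf4α alone had a C/EBPα peak on CD in 14.3% and 10.4% and loci of C/EBPα alone an Hnf4α peak in 13.1% and 25.9%.

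Loci absent on CD were low on LD. The 2361 loci of Hnf4α alone with no peak in any of the 4 CD libraries (11%) had median Hnf4α heights of 9 and 9.25, against 30.8 and 28.8 at the 13116 that kept their class. For C/EBPα alone, 2477 loci (20.8%) had no CD peak, with medians of 10 and 11.5 against 19 and 20.5. Among shared loci only 231 (1.94%) had none, with Hnf4α heights of 11.2 and 13.2 and C/EBPα heights of 11 and 12.5. H3K27ac met 53% ± 0.661 of these and 91.1% ± 0.951 of the shared loci that stayed shared (SD, n = 3).

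Promoter contacts were read from the LD promoter capture Hi-C list, in which the authors pooled the replicates. Among loci beyond 5 kb of a TSS and outside a captured promoter fragment, 25.7% of 8199 shared loci lay in a fragment in contact with a captured promoter, 24.6% of 13389 of Hnf4α alone and 24.9% of 7049 of C/EBPα alone. The 95% Wilson intervals were 24.8 to 26.7, 23.9 to 25.4 and 23.9 to 25.9, which overlap and cover counting error only. The share over all distal fragments was not computed, so the values compare the classes only with each other. Where the contacted promoters had gene identifiers, the nearest gene was among them for 21.8% of shared loci, 19.4% of Hnf4α alone and 17.7% of C/EBPα alone, with intervals of 20 to 23.8, 18.1 to 20.9 and 15.9 to 19.7. For most distal loci in a contact, the nearest gene was thus not the contacted one. The intervals for the nearest gene also cover counting error only. They treat loci as independent in a single pooled list, although loci in the same fragment share its contacts.

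The 5 highest loci of Hnf4α alone by mean rank lay near Nrip1, Gse1, Tns1, Cxcl2 and Tle3. That of Nrip1, which encodes a corepressor of nuclear receptors, was the highest, at chr16:76454092-76454321 in an intergenic region 80.9 kb from the gene's start. Its Hnf4α heights were 670 and 538, and only 1 C/EBPα library had a peak there. The pair of HNF4 strings of this locus stand within a few bases of each other in the sequence above. Nrip1 had 6.89, 6.08, 7.35, 6.16 and 7.02 TPM in the 5 LD mice, and its log2 fold change was -0.08 (edgeR adjusted p = 0.539). The locus near Cxcl2, a neutrophil chemokine, at chr5:91328421-91328640 had heights of 408 and 303 and no C/EBPα peak in either LD library. Cxcl2 was low, at 0.824 ± 0.177 TPM (SD, n = 5), and was higher on LD, with a log2 fold change of 1.90 (standard error 0.389, edgeR adjusted p = 0.00296). Gse1 was lower on LD (log2 fold change -0.72, edgeR adjusted p = 0.00284). All 5 loci had H3K27ac in 3 of 3 livers and Hnf4α in both CD libraries, and none had C/EBPα in a CD library.

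The 5 highest shared loci lay near Hjurp, 1700095A21Rik, Mgst1, C730002L08Rik and Tchhl1. The locus of Mgst1, a microsomal glutathione transferase, was at its promoter at chr6:138088492-138088768, with Hnf4α heights of 325 and 244 and C/EBPα heights of 159 and 174. Mgst1 had 9062, 7842, 8997, 8173 and 8701 TPM in the 5 LD mice. Its log2 fold change was 0.14 (edgeR adjusted p = 0.199). At Hjurp, a histone chaperone of centromeres, the locus chr1:90175721-90175984 had Hnf4α heights of 420 and 391 and C/EBPα heights of 172 and 232, the highest mean rank of the class, while the gene itself had 1.87 ± 0.23 TPM (SD, n = 5). Tchhl1, whose locus at chr3:93273653-93273908 reached 268 and 210 for Hnf4α and 138 and 132 for C/EBPα, was listed at 0 TPM in all 5 mice. High occupancy by both factors was thus found beside abundant, scarce and undetected transcripts.

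The 5 highest loci of C/EBPα alone lay near Rn45s, G530011O06Rik, Rad23b, Rcn1 and Zbtb44. The first, at chr17:39984692-39984952, lies beside the gene of the ribosomal RNA precursor, with heights of 836 and 1016 and 168 and 202 scaled input tags under 1672 and 2032 tags, and H3K27ac in none of 3 livers. Reads of many near-identical copies can collect there, and its height is uncertain. The locus near Rcn1, at chr2:105268324-105268583 in an intergenic region 29 kb from the start, had 152 in both libraries, the palindrome TTGCGCAA in the sequence above, and no H3K27ac interval in any liver. Rcn1, a calcium-binding protein of the endoplasmic reticulum, had 9.07 ± 1.02 TPM (SD, n = 5) and a log2 fold change of 0.39 (standard error 0.0886, edgeR adjusted p = 0.0055). The locus of Zbtb44 was the only one of these 5 with an Hnf4α peak in 1 LD library and in both CD libraries.

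Gene groups of liver metabolism were then examined for the classes at their promoters and around them. Of genes with at least 100 TPM on LD, 31.9% had a locus of Hnf4α alone within 1 kb of the start, 16.2% a shared locus and 18.8% a locus of C/EBPα alone, and 70.7%, 54% and 53.2% had such a locus as nearest gene. These shares stand as the background for abundant genes. For the diet calls of the lists, the background is 13.8% higher and 11.1% lower over all tested genes. Of 9 general genes, 4 were called higher and 3 lower, a share above the background as well. The lists are short, and a gene can count under several classes.

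Of 14 genes of fatty acid oxidation and ketogenesis, 6 had a promoter locus of Hnf4α alone and 0 a shared locus or one of C/EBPα alone. The 6 were Ppara, Acadm, Acadl, Hadhb, Ehhadh and Cyp4a10. Ppara, the nuclear receptor that drives this pathway, had promoter heights of 117 and 89.2 at chr15:85565936-85566157 and 143, 108, 130, 135 and 118 TPM in the 5 LD mice. Its log2 fold change was 0.34 (edgeR adjusted p = 0.016). Acadm, the medium-chain acyl-CoA dehydrogenase, had heights of 66 and 55.8 at chr3:153607737-153607968 and 477, 424, 495, 503 and 519 TPM, with a log2 fold change of 0.62 (standard error 0.0768, edgeR adjusted p = 0.000104). By the diet test 6 of the 14 genes were higher on LD, among them Ppara, Cpt1a, Acadm and Ehhadh, and 0 were lower. As nearest gene, 11 of 14 had a locus of Hnf4α alone, 9 a shared locus and 5 one of C/EBPα alone, and Acadvl had no locus.

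Acute phase genes encode proteins that the liver secretes in inflammation. Of 10 such genes, 7 had a shared promoter locus, Saa4, Orm1, Orm2, Hp, Hpx, Crp and Lcn2, 4 had one of C/EBPα alone and 1 one of Hnf4α alone. Hp, haptoglobin, had Hnf4α heights of 31.2 and 25 and C/EBPα heights of 74 and 77 at chr8:112103023-112103273, and 4058, 4134, 4432, 4992 and 4731 TPM. Lcn2, an iron-siderophore binding protein, had 33.8 and 24.2 for Hnf4α and 58 and 58.5 for C/EBPα. It rose on LD by a log2 fold change of 4.32 (standard error 0.256, edgeR adjusted p = 7.15e-06) to 53.5, 50.4, 66.1, 72.1 and 68.1 TPM. By the diet test 7 of 10 genes were higher on LD, Saa1, Saa2, Saa4, Orm2, Hp, Hpx and Lcn2, and 0 lower. Saa1 and Saa2, and Orm1 and Orm2, are near-identical copies between which the authors' counting and mapping could split reads.

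Plasma protein genes also had shared loci at many promoters. Of 12 genes, 7 had a shared promoter locus (Alb, F2, F9, Fgb, Serpinc1, Ahsg and Trf), 6 one of C/EBPα alone and 4 one of Hnf4α alone. The fibrinogen genes lie side by side on chromosome 3. Fgb had a shared promoter locus, with Hnf4α heights of 28 and 29.8 and C/EBPα heights of 29.5 and 26, while Fga and Fgg had a locus classed as C/EBPα alone, with 34 and 59.5 and with 23.5 and 32.5. Fgb, Fga and Fgg were lower on LD, with log2 fold changes of -0.76, -0.62 and -0.71 (edgeR adjusted p = 8.43e-05, 0.000254 and 7.36e-05). At the Fga locus both LD libraries of Hnf4α also had a peak, of 237 and 157 tags, but these peaks did not overlap each other, and both CD libraries of Hnf4α had a peak too. Alb, albumin, had only 27.5 and 25.8 for Hnf4α and 15 and 15 for C/EBPα at its promoter, beside 61555 ± 4238 TPM (SD, n = 5). In all, 6 of 12 genes of the list were lower on LD (F7, F10, Fga, Fgb, Fgg and Ahsg) and 0 higher.

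Every one of the 9 bile acid genes had a promoter locus, 5 of them shared (Cyp7a1, Cyp27a1, Nr0b2, Abcb11 and Slc10a1), 3 of Hnf4α alone (Cyp8b1, Baat and Slc27a5) and 1 of C/EBPα alone (Nr1h4). Cyp7a1, the rate-limiting enzyme of bile acid synthesis, had Hnf4α heights of 161 and 132 and C/EBPα heights of 18.5 and 16 at chr4:6202828-6203108. Its TPM in the 5 mice were 74.4, 67.6, 63.4, 31.4 and 25.7, with a log2 fold change of -0.80 that was not called (edgeR adjusted p = 0.16). Cyp8b1, the sterol 12-alpha-hydroxylase, had Hnf4α alone at 84 and 89.2, and was higher on LD (log2 fold change 0.40, edgeR adjusted p = 0.0378). Slc10a1, the bile acid importer, had Hnf4α heights of 49.8 and 44.2 and 29.5 in both C/EBPα libraries, and fell by 1.09 on the log2 scale (standard error 0.113, edgeR adjusted p = 3.44e-05). Of the list 1 gene was higher and 3 were lower on LD.

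Among 12 genes of gluconeogenesis, amino acids and urea, 5 had a shared promoter locus, G6pc, Pck1, Fbp1, Ass1 and Hpd, 5 one of Hnf4α alone and 4 one of C/EBPα alone. G6pc, glucose-6-phosphatase, had Hnf4α heights of 176 and 159 and C/EBPα heights of 15.5 and 24.5 at chr11:101228618-101229019. It was lower on LD (log2 fold change -1.20, standard error 0.217, edgeR adjusted p = 0.00244), with 242, 156, 210, 192 and 261 TPM in the LD mice. In this list 6 genes were lower on LD, among them Cps1 of the urea cycle (-1.33, edgeR adjusted p = 0.000545), and 0 were higher.

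Lipogenesis had promoters of C/EBPα alone more than of the other classes, at 6 of 14 genes (Acaca, Scd1, Elovl5, Thrsp, Dgat1 and Dgat2), with Hnf4α alone at 3 and a shared locus at 1, Elovl6. Around these genes shared loci were frequent, near 13 of 14. Elovl6, an elongase, had promoter heights of 80 and 72.8 for Hnf4α and 42 and 44.5 for C/EBPα. By the diet test 7 of 14 were lower on LD and 0 higher. Of 11 genes of lipid uptake and droplets, 3 had a promoter locus of Hnf4α alone (Plin2, Plin5 and Fabp1), 1 a shared locus (Cidec) and 1 one of C/EBPα alone (Vldlr), and 8 were higher on LD. Cidec, a lipid droplet protein, had Hnf4α heights of 32.5 and 63.2 and C/EBPα heights of 23 and 32.5, with 46, 71, 146, 108 and 152 TPM in the 5 LD mice and a log2 fold change of 5.44 (edgeR adjusted p = 4.24e-05).

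Of 9 apolipoprotein genes, 4 had a promoter locus of Hnf4α alone (Apoa4, Apoa5, Apoc3 and Apoh), 2 a shared locus (Apob and Apoh) and 2 one of C/EBPα alone (Apoa4 and Apoc3), and Apoa2 had no locus. At the promoters of Apoc3, which inhibits the clearance of triglyceride-rich lipoproteins, and Apob, the structural protein of very-low-density lipoprotein, the strings stood near the centre of the locus. The first sequence is the Hnf4α locus of Apoc3, which held CAAAGGTCA and had heights of 99.2 and 79.8 in LD livers. The second is a shared locus of Apob, where the strings are separated by a few bases and the heights were 102 and 92.5 for Hnf4α and 19 and 21 for C/EBPα.
Apoc3, chr9:46043840-46043960: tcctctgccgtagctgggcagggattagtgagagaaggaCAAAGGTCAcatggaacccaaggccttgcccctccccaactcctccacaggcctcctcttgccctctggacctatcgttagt
Apob, chr12:7984312-7984432: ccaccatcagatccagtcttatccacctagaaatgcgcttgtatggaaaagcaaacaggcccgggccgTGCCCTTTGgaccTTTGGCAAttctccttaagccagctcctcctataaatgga

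The factors' own genes had promoter loci of their own factor. Hnf4a had Hnf4α alone within 1 kb of its start, with low heights of 8 and 13 at chr2:163332223-163332493, and Cebpa had C/EBPα alone, with 33.5 and 31.5 at chr7:35903997-35904247. Hnf4a had 160, 148, 152, 178 and 175 TPM and Cebpa 235, 202, 237, 242 and 233 TPM in the 5 LD mice. Both had a log2 fold change of -0.26 with standard errors of 0.0729 and 0.0755 (edgeR adjusted p = 0.0176 and 0.0202), just under the fold change asked for, and neither was called. The study itself reported Hnf4α as differentially expressed, and lower in obese mice in mRNA by qPCR and in protein by immunoblot. It also stated that C/EBPα expression changed in its RNA-seq data. Among the 13 genes of hepatocyte factors, 4 had a shared promoter locus, among them Foxa2, Nr1i2 and Nr5a2. Nr5a2, a nuclear receptor of bile acid and cholesterol genes, had Hnf4α heights of 66 and 57.5 and C/EBPα heights of 20.5 and 20. Of 9 general genes, 1 had a shared promoter locus, Ppia, 4 one of Hnf4α alone and 2 one of C/EBPα alone.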

How the data were processed

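Livers of LD and CD mice were grouped by their labels. The authors aligned ChIP-seq reads to mm9 with Bowtie 0.12.8, removed duplicates with Picard 1.110 and deposited, per liver, HOMER peak lists with a height (a signal scaled to library size) and a tag count, and SICER intervals for H3K27ac. For RNA-seq (STAR 2.5, featureCounts 1.5.0-p1), the authors deposited raw counts per gene and TPM values, with columns of their own diet comparison, which were not used. The deposited promoter capture Hi-C list holds the CHiCAGO score of pooled replicates. Presence, not read coverage, defined the classes, so that peaks near the threshold can change class. The 4 LD factor libraries had 25 to 35 peaks on other contigs, which were left out. RNA libraries held 31707963 to 39012699 counts. Counts were tested in R 4.3.3 with edgeR 4.0.16 (TMM, filterByExpr, robust fit), and DESeq2 1.42.0 was an alternative. Levels were compared as log2(TPM + 1). Python 3.11.15, pandas 2.3.3 and pysam 0.24.0 did the rest. Steps were tested on simulated data. Nothing says whether the same mice gave the RNA and ChIP samples. Loci named are the 5 highest of each class, and genes those of 10 lists. The members and lists were chosen with earlier results of these data known. Some genes and sequences are not reported here.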

Additional observations from a re-analysis of the deposited data

Results flagged for a closer look

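Of 134 values measured in the 5 LD mice, 7 had 1 mouse apart from the other four, where the gap to the nearest mouse was more than 0.71 of the whole range. Chance sets 1 mouse apart in about 1 in 20 such groups. Saa1 was highest in LD replicate 1, with 359 TPM against 276 to 291 (gap of 0.823 of the range). Cidea was highest in replicate 3, with 66.1 TPM against 36.1 to 43 (0.768), and Abcb11 in replicate 5, with 267 TPM against 206 to 222 (0.739). Cebpa was lowest in replicate 2, with 202 TPM against 233 to 242 (0.764), as was Mttp with 145 TPM against 184 to 199 (0.724). Eef1a1 was lowest in replicate 1, with 4777 TPM against 5051 to 5136 (0.763), and G530011O06Rik likewise, with 0.43 TPM against 1.22 to 1.52 (0.722).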

How the results depend on the processing

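The alternatives were other definitions of the loci, windows, filters and tools, and leaving out each library. Shared loci kept the highest H3K27ac share and the lowest share within 1 kb of a TSS in every setting. The full H3K27ac order held in 11 of 12 settings (not without Hnf4α replicate 2) and the TSS order in 5 of 9. Without Hnf4α replicate 1 the H3K27ac shares of the classes of 1 factor were nearly tied, at 65.1% and 65%. The cause was not tested.

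In the order Hnf4α alone, both, C/EBPα alone, the 20000 highest peaks per library gave 10764, 6488 and 9527 loci, 21.5%, 12.5% and 19% within 1 kb of a TSS and 92.1%, 94.2% and 72.1% with H3K27ac. A peak in at least 1 replicate gave 34401, 22742 and 30920 loci, 19.1%, 13.6% and 14.7%, and 57.4%, 78% and 40.1%. Asking for no peak of the other factor in either library gave 19.1% and 22.2% within 1 kb and 70.1% and 64.3% with H3K27ac for the classes of 1 factor. Protein-coding TSS gave 16.5%, 10.2% and 19.4%. Centres within 100 bp gave 10.2% within 1 kb for both, 68% with H3K27ac for C/EBPα alone and a mean of 8.74% for C/EBPα on CD at Hnf4α alone. Locus centres inside an H3K27ac interval were 83.3% of both and 63.9% of C/EBPα alone. Leaving out 1 factor library gave 18969 to 32816, 13518 to 14376 and 10175 to 24899 loci, 18.3% to 18.6%, 11.7% to 12.4% and 16.5% to 21.7% within 1 kb, and, with the H3K27ac libraries also left out in turn, 63% to 72.4%, 82.4% to 85% and 48.8% to 65.9% with H3K27ac.

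The difference in log2(TPM + 1) of both and Hnf4α alone turned to -0.078 with the 20000 highest peaks, and ranged from 0.046 to 0.28 when 1 library was left out. That of both and C/EBPα alone turned to -0.025 with centres within 100 bp, to -0.14 with no peak of the other factor, and ranged from -0.12 to 0.5 when 1 library was left out. That of Hnf4α alone and C/EBPα alone turned to 0.48 with the 20000 highest peaks, 0.26 with a peak in at least 1 replicate and 0.072 with genes of at least 1 TPM, and ranged from -0.38 to 0.41 when 1 library was left out.

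In a central 100 bp window, CAAAGNNCA was in 22.5%, 13.5% and 3.29% and TTGCNNAA in 4.75%, 31.4% and 44.3% of the classes. Windows at a factor's own centre, chosen after seeing the data, gave 21.2% and 41.1% for both.

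With the replicate block, 1818 genes were higher and 1355 lower on LD over all tested genes, against 1859 and 1498. Same-numbered LD and CD mice correlated at -0.0779 to 0.193 in their deviations, and the main fit did not pair them. Low correlations cannot show that the numbers carry no pairing. No count of diet calls moved by over 1.5 times in any setting.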
